A study of Mus musculus with 2 samples.

Results

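Integrins, selectins and other adhesion molecules were followed on 2 Affymetrix arrays of mouse marrow cells. The members were all probe sets whose platform annotation gave exactly 1 gene symbol, current or former, out of 37 named adhesion genes. This rule found 82 of 45037 probe sets, which stood for 36 of 18193 genes. No probe set with that single symbol was found for Itgad, the integrin alpha D gene, and it was not analysed here. RNA came from wild-type C57BL6J mice, from LSK Flt3- marrow cells, a fraction rich in blood stem cells that lacks lineage antigens and the Flt3 receptor and carries Sca-1 and high c-Kit. One array, labelled GFP, is the control transduction, and 1 array is labelled with Satb1, the gene of an AT-rich DNA binding protein, as the transduced gene. The design text calls the cells transfected where the sample labels say transduced. The time between transduction and RNA extraction, the age of the mice and the number of animals or cultures behind each array are not stated in the labels. With 1 array per group, no difference below has a replicate check, a standard error or a p-value, and precision is limited by the number of arrays.

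Integrins are surface receptors made of 1 alpha and 1 beta chain, which bind matrix proteins or counter-receptors on other cells and link them to actin inside the cell. Selectins are lectins of endothelium, platelets and leukocytes that hold rolling cells by sugar-bearing ligands such as PSGL-1, the product of Selplg. In the marrow, alpha 4 beta 1 on blood progenitors binds VCAM-1 on stromal and endothelial cells, and such contacts hold the progenitors in place. Integrin alpha IIb beta 3, the fibrinogen receptor of platelets, and P-selectin, a platelet granule protein, are textbook products of the megakaryocyte lineage. Surface protein and adhesion were not measured on these arrays.

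Transcripts bear on the sorted population only in part. Of the 6 stem and progenitor markers measured by a probe set with 1 symbol, all lay above the intensity floor defined below. Flt3 RNA was among them, at 1390 on the GFP-labelled array and 1334 on the Satb1-labelled array, although the label describes cells without the Flt3 receptor. Satb1 itself was lower on the Satb1-labelled array by each of its 4 probe sets above the floor on either array, with 909 against 1116 by the brightest and 165 against 288 by the furthest apart. Whether these probe sets read the transduced copy of Satb1 is not stated in the labels. Satb1 RNA therefore does not serve as a check of the labels, and directions rest on the labels alone. Across 10 marker lists, the log2 ratio of summed intensity (Satb1 over GFP) was 1.52 for neutrophil markers and -0.70 for mast cell and basophil markers, and it lay between -0.17 and 0.38 for the other 8 lists. Sums follow their brightest genes. In the stem and progenitor list, with a summed ratio of -0.05, 2 of the 6 markers were higher on the Satb1-labelled array and 4 lower. Their log2 differences ran from -0.15 to 1.28, the highest being that of Slamf1, at 95.7 on the GFP-labelled array and 233 on the Satb1-labelled array. Of 8 neutrophil markers above the floor on both arrays 7 were higher on the Satb1-labelled array, by up to 2.16 for Camp, and Cxcr2 was lower, at 88.8 against 190. All 6 mast cell and basophil markers above the floor on both arrays were lower, by log2 differences from -0.04 to -2.60. Over all genes above the floor on both arrays, 45.7% were higher and 54.3% lower. In bulk RNA, fewer cells of a type and less RNA per cell cannot be told apart.

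Promoter sequences are shown for 4 members on which the account turns. Selp had the largest difference, and its neighbour Sele, the E-selectin gene, was below the floor. Cd44 was higher by each of its probe sets above the floor, and Itga2b is the alpha chain of the platelet fibrinogen receptor. The 250 bases before each gene's start come from RefSeq, 5′ to 3′ on the gene's strand. Capitals mark matches on either strand to a GATA motif, spelled AGATAA, also with T as its first base, G as its last or both, and to an ETS motif, spelled AGGAAG, also with C as its first base.
Selp promoter (GRCm38.p6, chr1:164115014-164115263, plus strand): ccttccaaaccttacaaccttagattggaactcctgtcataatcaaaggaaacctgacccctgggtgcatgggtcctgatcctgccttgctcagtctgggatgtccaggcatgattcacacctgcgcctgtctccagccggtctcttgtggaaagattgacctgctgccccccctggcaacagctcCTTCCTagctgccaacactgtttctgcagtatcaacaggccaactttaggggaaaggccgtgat
Sele promoter (GRCm38.p6, chr1:164047984-164048233, plus strand): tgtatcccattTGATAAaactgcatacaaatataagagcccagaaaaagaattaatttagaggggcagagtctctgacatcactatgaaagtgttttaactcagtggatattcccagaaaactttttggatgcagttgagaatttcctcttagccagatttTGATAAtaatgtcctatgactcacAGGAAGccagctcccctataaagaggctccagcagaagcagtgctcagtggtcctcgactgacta
Cd44 promoter (GRCm38.p6, chr2:102901666-102901915, minus strand): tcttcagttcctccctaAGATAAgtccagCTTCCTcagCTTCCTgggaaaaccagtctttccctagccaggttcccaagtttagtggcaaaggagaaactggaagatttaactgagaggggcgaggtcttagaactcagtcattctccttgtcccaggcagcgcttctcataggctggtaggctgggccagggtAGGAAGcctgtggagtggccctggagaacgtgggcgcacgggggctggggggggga
Itga2b promoter (GRCm38.p6, chr11:102469884-102470133, minus strand): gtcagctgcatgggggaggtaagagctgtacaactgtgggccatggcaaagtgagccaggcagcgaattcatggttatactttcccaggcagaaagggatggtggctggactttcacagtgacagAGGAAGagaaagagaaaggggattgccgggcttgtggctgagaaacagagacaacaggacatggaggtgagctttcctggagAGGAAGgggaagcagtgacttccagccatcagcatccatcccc

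The Selp window held 1 ETS match and 0 GATA matches, and the Sele window held 1 ETS match and 2 GATA matches. The Cd44 window held 3 ETS matches and 1 GATA match, and the Itga2b window held 2 ETS matches and 0 GATA matches. Promoters were given for 22 of the 36 measured members, in 25 entries. An ETS match was present in 13 of the 25 (52.0%), beside 39.2% of all 32851 promoter windows, and a GATA match in 5 of the 25, beside 26.5% of all windows. The AT share of the window was 46.4% for Selp, 59.6% for Sele, 43.6% for Cd44 and 46.0% for Itga2b, beside a median of 47.6% over all windows. These matches describe letters only and say nothing about which factors bind there.

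The values are intensities on a linear scale made by MAS5, the Affymetrix algorithm that condenses the probe pairs of a probe set. Low MAS5 values are mostly noise, so every intensity under 61.7, the median over both arrays, was raised to that floor before a difference was computed. A difference from a floored value is therefore a lower bound, written as "at least". Each gene was read from its brightest probe set, the one with the largest mean of the log2 intensities. Levels are not compared between genes, because probe sets differ in how strongly they bind. By that probe set, of the 36 measured members, 22 lay above the floor on both arrays, 3 on 1 array and 11 on neither. The 25 that passed on either array are 69.4% of those measured, beside 60.7% of all genes.

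**Figure D1:**
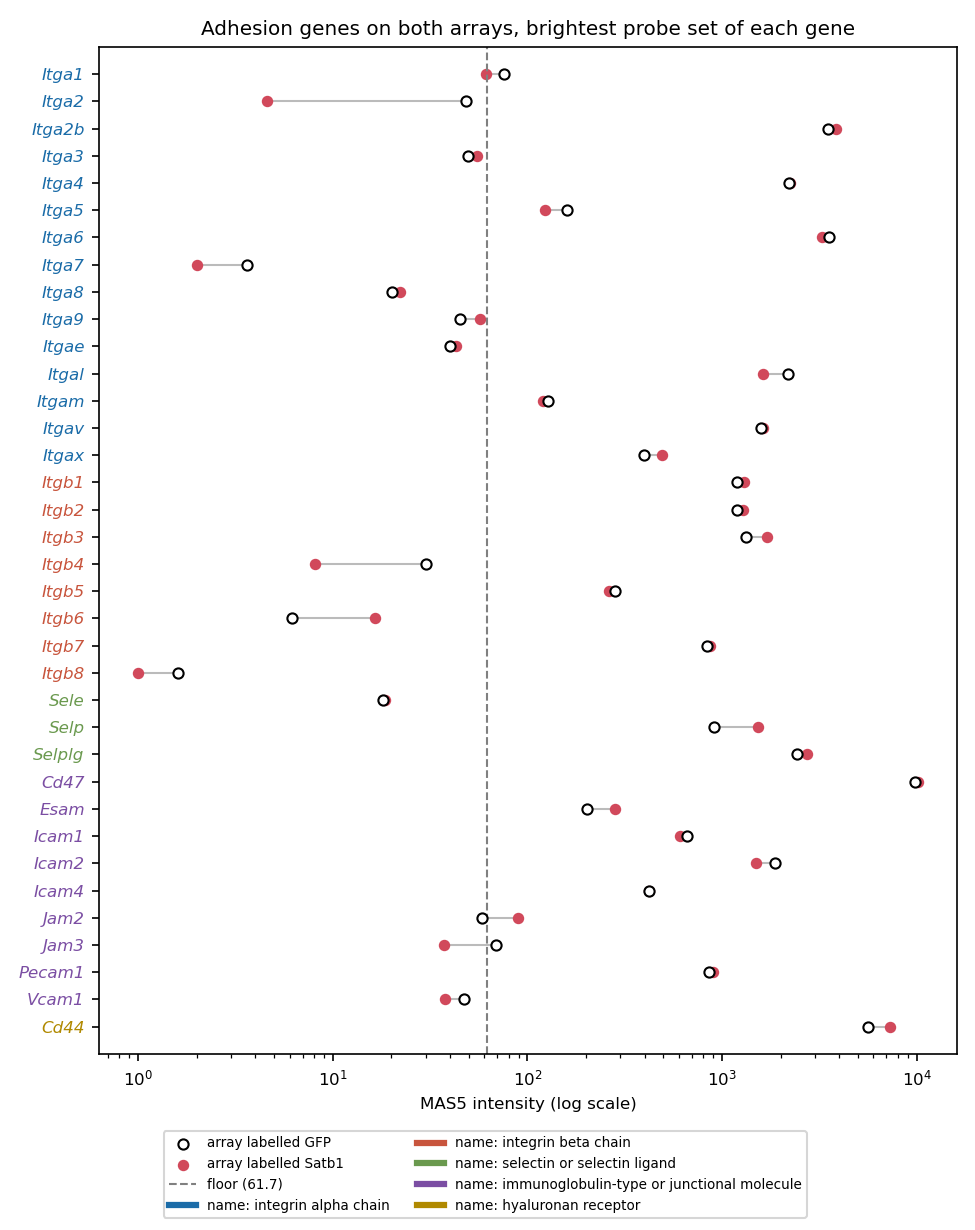
MAS5 intensity (horizontal log axis) of each of the 36 measured adhesion genes on the GFP-labelled array (open circle) and the Satb1-labelled array (red), by the brightest probe set, with name colours for the role. The 22 genes above the floor of 61.7 on both arrays mostly have touching symbols, Selp shows a clear gap, and the wide gaps to the left of the line lie in the range set to the floor.

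Among the integrin alpha chains, 8 of 15 measured were above the floor on both arrays. They were Itga2b, Itga4, Itga5, Itga6, Itgal, Itgam, Itgav and Itgax. Of these, 4 were higher on the Satb1-labelled array and 4 lower, all by less than 1.5-fold, with a median log2 difference of -0.03. By their brightest probe sets, Itga2, Itga3, Itga7, Itga8 and Itga9, which encode partners of beta 1, and Itgae, which encodes a partner of beta 7, were below the floor on both arrays. A second Itgae probe set read 64.6 on the GFP-labelled array, just above the floor, and 6.4 on the other. The collagen receptor chain gene Itga1 was above the floor on 1 array, at 75.6 on the GFP-labelled array against 61.4 on the Satb1-labelled array. The second value lay just under the floor, so its count as below rests on the place of the floor. The log2 difference was -0.29 with this floor and -0.30 with none.

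Itgal, the alpha L chain of the leukocyte integrin LFA-1, read 2178 on the GFP-labelled array and 1630 on the Satb1-labelled array. This was a log2 difference of -0.42, the lowest of the 22 members above the floor on both arrays. Its second probe set read 110 and 89.2, a difference of -0.30, so both probe sets were lower on the Satb1-labelled array. Itga5, which encodes the fibronectin receptor chain alpha 5, read 159 and 123, a difference of -0.37. A second Itga5 probe set above the floor on both arrays was also lower, at 76.7 and 68.9, and one more read 89.3 and 46.2. Itga6, the laminin receptor chain alpha 6, read 3532 and 3266 by one probe set and 1171 and 1153 by the other. Both Itga6 differences, -0.11 and -0.02, were small.

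Itgax, the alpha X chain of a complement receptor typical of dendritic cells and macrophages, read 399 on the GFP-labelled array and 489 on the Satb1-labelled array, a log2 difference of 0.30. Its neighbour on chromosome 7, Itgam, encodes alpha M, the Mac-1 chain that is a usual lineage antigen of myeloid cells. Itgam read 127 and 121, both above the floor although the cells were described as lacking lineage antigens. The Itgam difference of -0.08 turned to 0.07 after quantile normalization, so it has no settled direction. Itga2b, encoding alpha IIb (CD41), read 3515 and 3841, a difference of 0.13. Itgav, the alpha v chain that pairs with several beta chains, read 1580 and 1632, a difference of 0.05, and its other 4 probe sets were below the floor on both arrays.

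Itga4 encodes alpha 4, the chain shared by the VCAM-1 receptor alpha 4 beta 1 and the gut homing receptor alpha 4 beta 7. Its brightest probe set read 2220 on the GFP-labelled array and 2239 on the Satb1-labelled array, and the log2 difference of 0.01 became -0.01 after quantile normalization. The other Itga4 probe sets above the floor on each array went opposite ways, at 330 and 403 (0.28) and at 195 and 146 (-0.42). A further one read 79.2 on the GFP-labelled array and 39.1, below the floor, on the Satb1-labelled array. The spread of 0.70 between Itga4 probe sets was wider than the difference of any member's brightest probe set except that of Selp.

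Among the integrin beta chains, 5 of 8 measured were above the floor on both arrays, namely Itgb1, Itgb2, Itgb3, Itgb5 and Itgb7. Of these, 4 were higher on the Satb1-labelled array and 1 lower, with a median log2 difference of 0.09 and none 1.5-fold apart. Itgb4, Itgb6 and Itgb8, chains typical of epithelia and other solid tissues, were below the floor on both arrays. Itgb3, the beta 3 chain of the fibrinogen and vitronectin receptors, read 1321 on the GFP-labelled array and 1707 on the Satb1-labelled array, a difference of 0.37. A second Itgb3 probe set read 9.7 and 83.8, below the floor on the GFP-labelled array, and was at least 1.36-fold higher on the Satb1-labelled array.

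Itgb1, the partner of many alpha chains, read 1187 and 1302 by its brightest probe set, a log2 difference of 0.13. Its other probe sets above the floor on each array read 817 and 799 and, by a cross-matching type of probe set (suffix _x_at), 108 and 102, so the direction differed between probe sets. Itgb2, the beta chain of all leukocyte integrins with alpha L, M, X or D, read 1200 and 1278, a difference of 0.09. Itgb7, the partner of alpha 4 and alpha E in lymphocyte homing, read 833 and 863, a difference of 0.05. Itgb5, a partner of alpha v, read 281 and 262 by its brightest probe set, and its probe sets above the floor on each array ran from -0.10 to 0.11. Both ends of this range come from probe sets of the _x_at type, the brightest among them. The Itgb5 probe set between them, of another type, read 207 and 205 (-0.01). A further Itgb5 probe set read 96.4 on the GFP-labelled array and 36.8, below the floor, on the Satb1-labelled array. It was at least 1.56-fold lower.

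Known integrin pairs were then read from the chains. Of 22 pairs considered, 11 had both chains above the floor on both arrays, using 8 alpha and 5 beta chains. Alpha D beta 2 is among the 22 but could not be read, because Itgad had no probe set with that single symbol. With beta 1 these were alpha 4, alpha 5, alpha 6 and alpha v, which is 4 of the 10 beta 1 pairs considered. With beta 2 they were alpha L, alpha M and alpha X. The remaining 4 were alpha IIb beta 3, alpha v beta 3, alpha v beta 5 and alpha 4 beta 7. Whether any pair is assembled was not measured, and pairs share chains and are not independent.

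**Figure D2:**
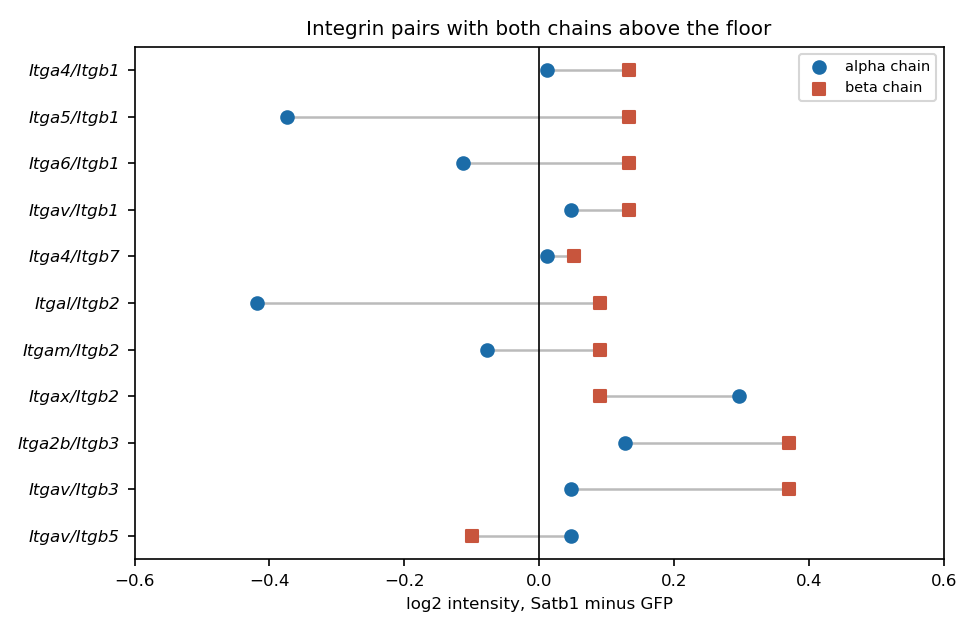
Log2 intensity difference, Satb1-labelled array minus GFP-labelled array, of the alpha chain (circle) and beta chain (square) of the 11 integrin pairs with both chains above the floor on both arrays. Both platelet fibrinogen receptor chains (Itga2b/Itgb3) lie to the right of 0, whereas Itgal lies at -0.42 and its partner Itgb2 at 0.09.

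By the brightest probe set of each chain, in 6 of the 11 pairs both chains were higher on the Satb1-labelled array. In 5 the chains went opposite ways, and in 0 were both lower. For the fibrinogen receptor of platelets, alpha IIb differed by 0.13 and beta 3 by 0.37 on the log2 scale. For LFA-1, alpha L differed by -0.42 and beta 2 by 0.09, so that the chains stood 0.51 apart. For the fibronectin receptor alpha 5 beta 1, the chains also stood 0.51 apart, at -0.37 and 0.13. In alpha 4 beta 7 they stood 0.04 apart. The count of 6 includes the pairs of Itga4, whose direction changed after quantile normalization. The beta 1 pairs use the brightest Itgb1 probe set, and its other probe sets above the floor were lower, at -0.03 and -0.09. By those, alpha 5 beta 1 and alpha 6 beta 1 would have both chains lower, and alpha 4 beta 1 and alpha v beta 1 would not have both higher.

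The selectins gave the one member at 1.5-fold. Selp, the P-selectin gene, read 909 on the GFP-labelled array and 1528 on the Satb1-labelled array, a 1.68-fold difference (log2 0.75). Its other probe sets were also higher on the Satb1-labelled array, at 363 and 576 (0.66) and at 442 and 611 (0.47). The last of these is of the cross-matching type (suffix _x_at). All 3 lay above the floor on both arrays, and their log2 differences averaged 0.63 with an SD of 0.14 between probe sets. Probe sets of 1 gene share each RNA preparation, so this SD is not the error between arrays. Of the genes above the floor, 2.90% differed by as much as Selp in either direction.

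Beside Selp, 7 of 8 measured megakaryocyte markers were above the floor, with Gp6 the exception. While 45.7% of all genes above the floor on both arrays were higher on the Satb1-labelled array, all 7 were, by log2 differences from 0.05 to 0.81. The largest were those of the chemokine gene Ppbp (0.81) and of Gp1bb, a chain of the platelet von Willebrand factor receptor (0.74), beside 0.75 for Selp. Their summed intensity was 23438 on the GFP-labelled array and 27133 on the Satb1-labelled array, of which Pf4 alone gave 19179 and 21045. Their part in the Selp and Itgb3 differences was not tested. Endothelium also makes P-selectin, E-selectin and VCAM-1. Of 10 endothelial markers 6 passed the floor on either array, and the summed intensity of the list was 1493 and 1573. The 3 above it on both arrays were also higher on the Satb1-labelled array, by log2 differences from 0.01 to 0.44. The part of endothelial cells in the Selp difference was not tested either. Cdh5, Plvap, Cldn5 and Stab2 were below the floor on both arrays. Sele, which encodes the endothelial E-selectin, read 18 and 18.6, below the floor on both arrays. Selplg, encoding the selectin ligand PSGL-1 of leukocytes, read 2443 and 2729, a log2 difference of 0.16.

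Cd44 encodes a receptor for the matrix sugar hyaluronan and also carries selectin ligands on blood progenitors. It read 5654 on the GFP-labelled array and 7296 on the Satb1-labelled array, a log2 difference of 0.37. The other Cd44 probe sets above the floor read 3377 and 4907 (0.54) and 409 and 491 (0.27), so all 3 were higher on the Satb1-labelled array. Its remaining probe set was under the floor on each array. The neutrophil markers, whose cells also carry CD44, had 8 of 8 measured members above the floor, 7 of them higher, and a summed intensity of 6593 and 18962. Their part in the Cd44 difference was not tested.

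Of the 9 molecules of the immunoglobulin type or of cell junctions, 6 were above the floor on both arrays, 3 of them higher and 3 lower, with a median log2 difference of 0.02. Esam, an adhesion molecule of endothelium, platelets and blood stem cells, read 202 on the GFP-labelled array and 280 on the Satb1-labelled array, a difference of 0.47 by its single probe set. It lay past 1.5-fold, at 0.59, after quantile normalization. Pecam1, encoding CD31 of endothelium, platelets and leukocytes, read 856 and 897, a difference of 0.07. Cd47, the "do not eat me" signal read by SIRP alpha on macrophages, read 9811 and 10172 by its brightest probe set. The other 4 Cd47 probe sets were lower on the Satb1-labelled array, by log2 differences from -0.07 to -0.48, so the gene had no single direction.

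The ICAM genes encode ligands of the beta 2 integrins. Icam2 read 1871 on the GFP-labelled array and 1488 on the Satb1-labelled array, a log2 difference of -0.33. Icam1 read 663 and 606, a difference of -0.13. Its neighbour on chromosome 9, Icam4, best known from red cells, read 422 and 419, a difference of -0.01 that turned to 0.06 after quantile normalization. Vcam1, the stromal and endothelial ligand of alpha 4 beta 1, was below the floor by all 3 probe sets, the brightest at 47.1 and 37.8. Of 9 stromal markers 2 passed the floor on either array. Pdgfrb was well above it, at 988 on the GFP-labelled array and 1073 on the Satb1-labelled array. Col1a2 read 79.1 and 14, so it passed on the GFP-labelled array only. Col1a1, Col3a1, Lepr, Cxcl12, Pdgfra, Dcn and Lum stayed under 61.7 on each array.

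The junctional adhesion molecule genes sat at the floor. Jam2 was above it on the Satb1-labelled array only, at 58.7 on the GFP-labelled array against 89.8, at least 1.46-fold higher. Another Jam2 probe set was above it on the GFP-labelled array only, at 67.2 against 40.3, the other way round. Jam3 read 69.3 on the GFP-labelled array and 37.1 on the Satb1-labelled array, at least 1.12-fold lower. Members that pass the floor on a single array had to differ, so these genes, like Itga1, are given as values only.

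**Figure D3:**
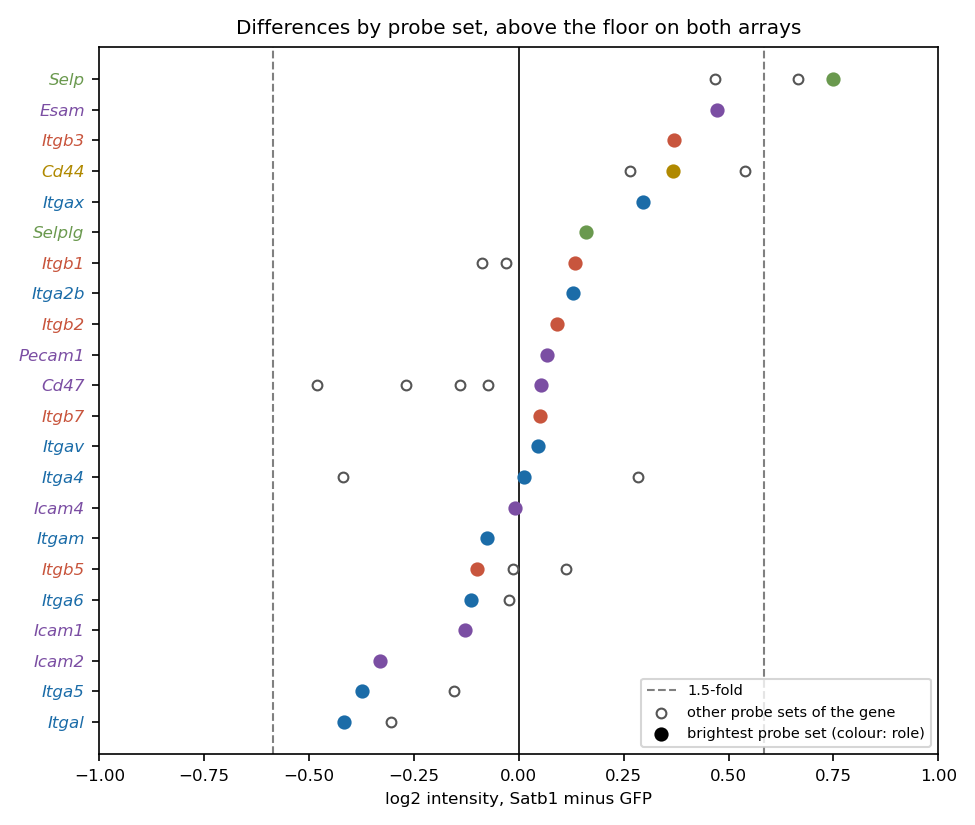
Log2 intensity difference, Satb1-labelled array minus GFP-labelled array, of the 22 adhesion genes above the floor on both arrays, by the brightest probe set (filled, coloured by role) and by other probe sets above the floor on each array (open). Dashed lines mark 1.5-fold. Selp is past the line by 2 of 3 probe sets, the 3 Cd44 probe sets lie to the right of 0, both Itgal and both Itga5 probe sets lie to the left, and the probe sets of Itga4, Cd47, Itgb1 and Itgb5 lie on both sides.

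Across the list, 1 of the 25 members above the floor (Selp) was at least 1.5-fold higher on the Satb1-labelled array and 0 were at least 1.5-fold lower. Of all 11048 genes that passed the floor on either array, 1.75% were 1.5-fold higher and 3.91% were 1.5-fold lower. At 2-fold, 0 members were higher and 0 lower, beside 0.272% and 0.86% of all genes. Shares this small leave 25 members with few or no genes at either fold, so the counts do not set the list apart. The median log2 difference of the 25 was 0.05, and that of all genes above the floor was -0.02. Among the 22 above the floor on both arrays, the median size of the difference was 0.13, beside 0.14 for all such genes.

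The only technical spread these arrays offer is that between probe sets of 1 gene. Over all genes, that spread, as an SD of log2 differences within genes, was 0.36 at mean intensities under 200, 0.28 from 200 to 500, 0.19 from 500 to 2000 and 0.13 over 2000. Of the 22 members, 9 differed by more than the SD of their own intensity range, beside 33.5% of all genes above the floor on both arrays. By more than 2 SD it was 3 members (Selp, Cd44 and Itgal), beside 8.46% of all such genes. This SD leaves out the error between RNA preparations, so passing it does not show a difference between the conditions. Of the 9 members with more than 1 probe set above the floor on both arrays, 5 (Cd44, Itga5, Itga6, Itgal and Selp) had all of them on the same side of 0. The other 4 (Cd47, Itga4, Itgb1 and Itgb5) had probe sets on both sides.

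Genes that act with the members were read from 4 further lists. The list of integrin activation and linkage to actin held 36 measured genes, of which 30 were above the floor on both arrays. Of these, 21 were higher on the Satb1-labelled array and 9 lower, with a median log2 difference of 0.11. The same split over all 10316 genes above the floor on both arrays was 4712 higher and 5601 lower (45.7% and 54.3%), with a median of -0.02, and it stands beside each list here. None of the 30 was 1.5-fold apart, and the largest log2 differences were those of Filip1l (0.54), Apbb1ip (0.47) and Actn1 (0.44). The 9 lower genes reached -0.23, for Actn4. Src, a kinase that signals from engaged integrins, passed the floor on a single array and is given as a value only, at 42.3 on the GFP-labelled array and 104 on the Satb1-labelled array. Src had a further probe set, under the floor on each array. Chosen once the values were known, 3 core activators were higher by smaller amounts. Tln1 (talin, which opens the beta chain) read 2539 on the GFP-labelled array and 3023 on the Satb1-labelled array. Fermt3 (kindlin-3 of blood cells) read 16586 and 17709, and the small GTPase gene Rap1b read 14521 and 17615.

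Enzymes that build or sulphate selectin ligands were all above the floor. Of these 10 genes, 3 were higher on the Satb1-labelled array and 7 lower, with a median log2 difference of -0.08. After quantile normalization or centring of the arrays the split was 5 and 5. Fut4, a fucosyltransferase gene, was 1.54-fold higher, at 282 against 183. Tpst1, encoding a tyrosine sulphotransferase of the kind that acts on PSGL-1, was 1.61-fold lower, at 102 against 164. The sialyltransferase gene St3gal6 was 2.72-fold lower, at 118 against 320, by a probe set of the cross-matching type (suffix _x_at). Another St3gal6 probe set above the floor on both arrays went the other way, at 119 against 96.5. A further one read 90.4 on the Satb1-labelled array against 60.3, below the floor, on the GFP-labelled array, and was at least 1.47-fold higher. The fucosyltransferase gene Fut7, chosen after its value was seen for its role in leukocyte selectin ligands, read 918 and 910.

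Ligands and membrane partners of the members had 22 measured genes, of which 13 were above the floor on both arrays and 9 on neither. The 9 were the matrix and plasma ligand genes Fn1, Vtn, Fga, Fgb, Fgg, Lamb1, Lama4 and Nid1, and Madcam1, the ligand of alpha 4 beta 7. Of the 13, 5 were higher on the Satb1-labelled array and 8 lower, with 0 at 1.5-fold in either direction. The median log2 difference of -0.13 turned to 0.01 after quantile normalization. The largest differences were those of the laminin chain gene Lama5 (102 on the GFP-labelled array and 72.5 on the Satb1-labelled array) and the tetraspanin gene Cd37 (702 and 516). Next was the collagen IV chain gene Col4a1, at 878 and 655, whose other probe set went the opposite way, at 133 and 195.

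The list of other adhesion receptors held 19 measured genes, of which 11 were above the floor on both arrays. Of these, 4 were higher on the Satb1-labelled array and 7 lower, with a median log2 difference of -0.16. The lower genes include Esyt1, at 1384 on the GFP-labelled array and 1116 on the Satb1-labelled array. Esyt1 does not encode an adhesion receptor, and the counts and the median keep it in. Pvr, encoding the poliovirus receptor CD155, was the one gene at 1.5-fold, and it was 1.54-fold lower at 111 against 171. Another Pvr probe set above the floor on both arrays was lower too, at 80.0 against 113.

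**Figure D4:**
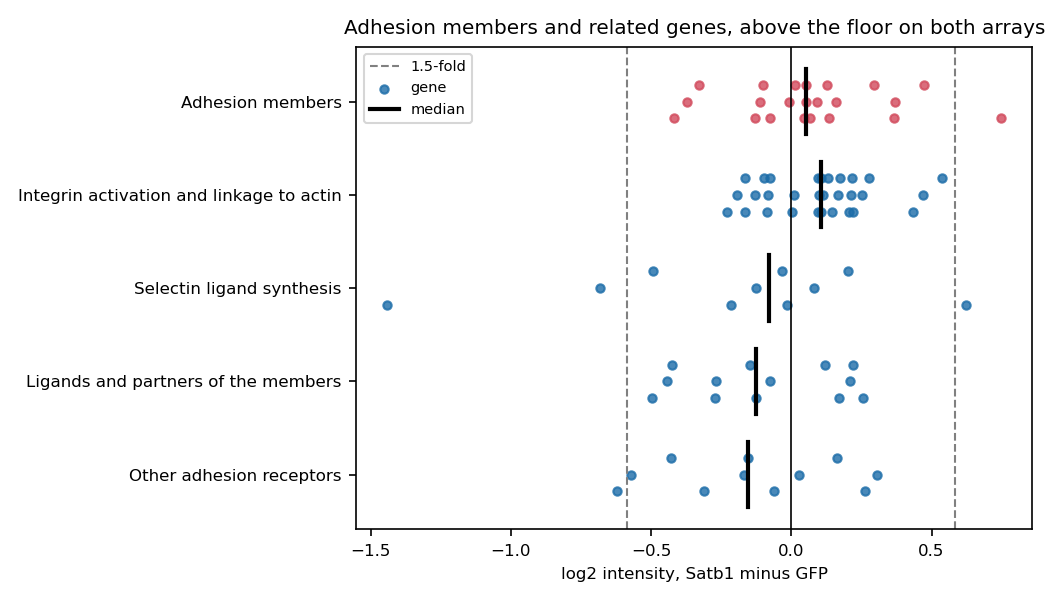
Log2 intensity difference, Satb1-labelled array minus GFP-labelled array, of the genes above the floor on both arrays among the adhesion members (red) and 4 related lists (blue), with the median of each as a black bar and 1.5-fold as dashed lines. The medians run from -0.16 for other adhesion receptors to 0.11 for integrin activation, and few genes of any list lie past the dashed lines. The list of other adhesion receptors also holds Esyt1, which does not encode one.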

How the data were processed

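The deposited table holds intensities that the authors made with MAS5, per the submitters' processing notes. No source used here names the MAS5 version, the scaling target or a genome build. Biotinylated cRNA was hybridised, per the labels' protocols, with 1 array per group.

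Symbols of the 34945 probe sets with 1 symbol were brought up to date by Entrez gene ID in the GRCm38.p6 gene table, which matched 34741. Values were used as deposited, in Python 3.11.15 with pandas 2.3.3. Differences are log2 intensity, Satb1 minus GFP, with values below 61.7 set to that floor and each gene read from its brightest probe set. Genes were counted at 1.5-fold and 2-fold, with no test. Scripts were tested on simulated data. Alternatives changed the floor, the scaling, and the probe sets used.

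Every member above the floor is named. From related lists, genes 1.5-fold apart are named, or the 3 with the largest difference where none was, and Tln1, Fermt3, Rap1b and Fut7 were added after their values were seen. The members and lists were chosen with earlier results of these data known. Promoters come from RefSeq and were scanned for exact motif matches. Apart from these windows no coordinates are given, because the array files name no build.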

Additional observations from a re-analysis of the deposited data

How the results depend on the processing

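The number of adhesion genes at 1.5-fold or more was small under every setting run, and Selp was counted as higher in all of them. With the floor at the 25th percentile of all values, 2 members were 1.5-fold higher (Jam2 and Selp) and 3 lower (Itga2, Itgb4 and Jam3). Of all genes above that floor, 7.16% were 1.5-fold higher and 12.0% lower. At 2-fold, 2 of these members were lower, beside 4.99% of all such genes. With no floor, 3 were 1.5-fold higher and 5 lower, beside 12.4% and 17.3% of all genes. At 2-fold, 1 was higher (Itgb6) and 2 lower (Itga2 and Itgb4), beside 8.12% and 10.9% of all genes. These added genes read below 61.7 on at least 1 array. After quantile normalization 3 members were 1.5-fold higher (Esam, Jam2 and Selp), beside 2.74% of all genes. With the mean over all probe sets of a gene, 2 were 1.5-fold higher, beside 2.98% of all genes. Of these, 1 was 2-fold higher, Itgb3, through its dim second probe set, beside 0.663% of all genes. The integrin pairs with both chains above the floor numbered 7 when the floor was the 75th percentile of all values, and between 8 and 16 under the other settings. These pair counts were recomputed by a choice made after seeing the data. Of 175 single-gene values recomputed, 167 moved by less than the within-gene SD of their intensity range. Many of these could not move, because a change of floor leaves genes far above it as they were. Selp, the one gene at 1.5-fold, stayed higher in each setting. Smaller differences did change sign, among them those of Icam4, Itga4 and Itgam after quantile normalization. That of Cd47 became -0.18 with the mean over probe sets. No paired analysis was possible because each group has 1 array, and for the same reason no array could be left out. Dim probe sets limit what can be said of the 11 members below the floor by their brightest probe sets. Without probe sets ending in _s_at or _x_at, 26 members lay above it, Itgae being the added one.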
